A study of Rattus norvegicus with 16 samples.

Results

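Gene expression after extracellular nicotinamide phosphoribosyltransferase (eNampt) was compared directly with that after corticotropin-releasing hormone (CRH), both 24 h after the ligand was added. The comparison took the 4 arrays titled as eNampt and the 4 titled as CRH, which are 8 of the 16 arrays in the series. No control array entered the test. All 14557 genes with a single gene symbol were compared, each through its brightest probe set.

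The cells were rat pituitary cells labelled as isolated corticotropes, from Wistar rats 21 days old. Per the labels' protocols, the glands were digested with collagenase and cultured, and the cells were then drawn out on beads with an antibody to CRHR1, the CRH receptor, whereas the series' design text names an antibody to CRH. Both groups were kept in the same medium with 10% serum and 0.05 µg/l FGF, and differ in the labels only by the ligand. The sources used here give neither the doses nor the preparation of eNampt. They also leave unsaid if same-group arrays stem from different cultures or rats, so p-values measure only the spread between arrays, which may be technical. The other arrays of the series hold 4 samples after interleukin-6 (IL-6) and 4 controls.

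Corticotropes make ACTH from the precursor encoded by Pomc. CRH acts on them through CRHR1, which raises cAMP, activates protein kinase A and CREB, and induces the NR4A nuclear receptors that drive Pomc. Nampt is the rate-limiting enzyme that salvages nicotinamide into NAD. Outside the cell the same protein has been described as cytokine-like and as a ligand of toll-like receptor 4, whose signal runs through NF-kB to chemokines and cytokines.

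Levels are given as deposited, as log2 values, so a difference of 1 is a 2-fold change. A level serves to compare arrays for 1 gene and not to compare genes, since probe sets differ in brightness. The array medians lay between 1.82 and 2.01 over all probe sets on the 8 arrays, and levels near them are dim. Across genes, the eNampt arrays correlated with each other at 0.898 to 0.947, the CRH arrays with each other at 0.840 to 0.938, and arrays of different groups at 0.859 to 0.963. The 2 groups of arrays thus overlapped in likeness, and eNampt array 1 and CRH array 1 gave the highest value. CRH arrays 3 and 4 had the lowest quality weights of the 12 ligand arrays (0.596 and 0.613), and some results below are given without them, a choice made after seeing the data.

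The label was checked against marker genes. Pomc was bright, at 7.86 to 8.73 on the 8 arrays. Tbx19 and Neurod1, the factors that specify corticotropes, were dim, at 1.20 to 1.70 and 1.14 to 1.54. Crhr1 was not analysed here for lack of a probe set with a single symbol. Several markers of other cell types were bright: Prl of lactotropes stood at 10.4 to 11.1, Cga, the subunit that thyrotropes and gonadotropes share, at 6.92 to 8.74, and Gh1 of somatotropes at 4.34 to 6.35. The markers that set thyrotropes and gonadotropes apart were lower or dim, with Tshb at 1.04 to 3.65, Lhb at 2.24 to 3.48, Fshb at 1.56 to 2.36 and Gnrhr at 1.19 to 1.67. Of the fibroblast and smooth muscle genes, Tagln and Col1a1 were bright, at 10.0 to 10.4 and 5.73 to 7.86. Among them Des was dim at 1.58 to 2.09, and Lum ranged from 1.33 to 5.33. Vim, counted below among the markers of posterior lobe glia, was bright at 9.11 to 9.48. Endothelial Vwf (1.26 to 1.61) and the leukocyte gene Ptprc (1.28 to 1.72) were dim on every array, but other leukocyte markers reached higher levels on some arrays, Fcer1g ranging from 1.93 to 4.54, C1qa from 1.81 to 4.18 and Tyrobp from 1.97 to 3.34. In such samples fewer cells of a type and less RNA per cell cannot be told apart.

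After eNampt, Csf2 and Pla2g2a were higher than after CRH, and the chemokine receptor Ackr4 was lower. These were the 3 genes of 14557 (0.0206%) that passed at an adjusted p under 0.05 with limma, Benjamini-Hochberg adjusted over all genes, 2 of them higher (0.0137%) and 1 lower (0.00687%). At an unadjusted p under 0.05, 405 genes (2.78%) were higher after eNampt and 336 (2.31%) were lower. The groups did not overlap for 178 genes with the eNampt arrays above (1.22%) and for 253 with them below (1.74%). The median log2 difference, eNampt minus CRH, was -0.05 over all genes, and 42.9% of genes had a difference above 0. Brighter genes lay higher: for the 7450 genes with a mean level above 2.22, the median of all values, it was 0.07. Fitted alone, 301 of these were higher and 98 lower at an unadjusted p under 0.05. Among the 12 higher and 12 lower genes of largest moderated t, the differences of the higher genes ran from 1.27 (Cmpk2) to 3.20 (C3). Those of the lower genes ran from -0.50 (Spag1) to -2.15 (Ackr4). Predicted loci and small RNA, histone and chemosensory receptor genes were left out of this choice.

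**Figure D1:**
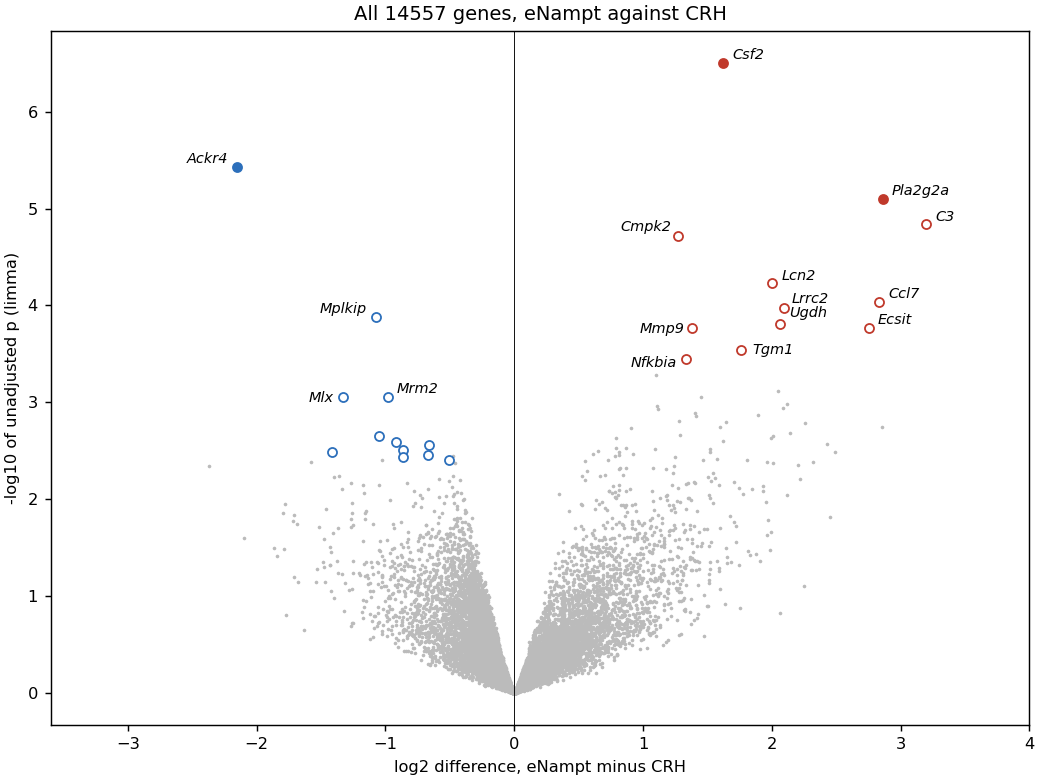
Each point is 1 of 14557 genes, with the log2 difference, eNampt minus CRH, on the x axis and -log10 of limma's unadjusted p on the y axis. Filled circles are the 3 genes past the adjusted threshold (Csf2, Pla2g2a, Ackr4), and open circles complete the 12 genes of largest moderated t in each direction. Red is higher and blue lower after eNampt. Predicted loci and small RNA, histone and chemosensory receptor genes were left out of the circled genes.

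Csf2 encodes GM-CSF, the growth factor of granulocytes and macrophages. Its level was 3.73, 3.96, 3.58 and 3.87 on the eNampt arrays and 2.28, 2.06, 2.27 and 2.04 on the CRH arrays. All 4 eNampt arrays lay above all 4 CRH arrays, where the gene was close to the array median. The log2 difference was 1.62 ± 0.15 (SE, n = 4 in each group), a 3.08-fold higher level, with an adjusted p of 0.00457 by limma. Csf2 passed the threshold whichever single array was left out, with differences of 1.57 to 1.69. It did not with the control arrays in the fit (adjusted p 0.346) or without CRH arrays 3 and 4 together (0.196). Nor did it pass with the replicate numbers of the titles fitted as a block (0.0522).

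Pla2g2a encodes the secreted group IIA phospholipase A2, an acute-phase enzyme that frees fatty acids from membranes and kills bacteria. Its levels after eNampt were 5.75, 5.95, 3.94 and 5.30, and after CRH 2.66, 2.14, 2.42 and 2.28. The groups did not overlap, and eNampt array 3 was the lowest of its group. The log2 difference was 2.86 ± 0.37 (SE), or 7.27-fold, with an adjusted p of 0.0386 by limma. The call was lost without any 1 of the 4 CRH arrays or of eNampt arrays 1, 2 and 4 (adjusted p up to 0.202). It was also lost with only the 8 arrays in the fit (0.253) and without CRH arrays 3 and 4 together (0.477). The same held with the replicate numbers of the titles as a block (0.113) and with all probe sets in the fit (0.0677). The difference stayed between 2.62 and 3.29.

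Ackr4 encodes an atypical chemokine receptor that binds and takes up CCL19, CCL21 and CCL25 without signalling through G proteins. Its levels were 5.90, 4.49, 4.92 and 5.00 after eNampt and 7.30, 6.98, 7.25 and 7.39 after CRH. Every CRH array was above every eNampt array. The log2 difference was -2.15 ± 0.26 (SE), a 4.44-fold lower level after eNampt, with an adjusted p of 0.0271 by limma. The call held without eNampt array 1 or 2 and was lost without any 1 of the other 6 arrays (adjusted p up to 0.131, difference -2.43 to -1.96). The adjusted p was 0.238 with only the 8 arrays in the fit, 0.265 with the control arrays added and 0.477 without CRH arrays 3 and 4 together. It was 0.059 with the replicate numbers of the titles fitted as a block.

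Next in the order came C3, the central complement protein, which did not pass (adjusted p 0.0531 by limma). It had levels of 6.33, 4.24, 6.35 and 6.08 after eNampt and 2.70, 2.17, 2.77 and 2.56 after CRH, a log2 difference of 3.20 ± 0.44 (SE). The groups were far apart and eNampt array 2 was the one low value. Without that array the difference was 3.70 and the adjusted p 0.0012. Without any other single array the adjusted p was 0.0823 to 0.232. It was 0.253 with only the 8 arrays in the fit and 0.477 without CRH arrays 3 and 4 together. C3 passed in 5 of 18 alternatives.

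Lcn2, lipocalin 2, binds bacterial siderophores and withholds iron. Its levels were 8.79, 8.59, 8.45 and 8.53 after eNampt and 7.21, 6.70, 5.69 and 6.74 after CRH, 2.01 ± 0.32 (SE) apart on the log2 scale. The 4 eNampt arrays were close together and above all CRH arrays, yet the adjusted p was 0.143 by limma. Cmpk2, a mitochondrial nucleotide kinase that interferon induces, was at 3.36, 3.26, 3.53 and 3.48 against 1.92, 2.40, 2.32 and 1.88, a difference of 1.27 ± 0.18 (SE) with an adjusted p of 0.0564. It too showed no overlap.

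For these genes the control arrays, whose titles give no time and which entered no test here, give a further point. Csf2 was at 3.27, 2.81, 1.29 and 2.21 on control arrays 1 to 4, all below the eNampt levels. Control arrays 1 and 2 lay above every CRH array, control array 4 within the CRH levels and control array 3 below them. Pla2g2a was between 2.11 and 2.61 and C3 between 2.31 and 2.48 there, below every eNampt array. Ackr4 spread from 5.24 to 7.39 in the controls, across the whole gap between the ligands and into the levels of both. Lcn2 was at 6.68, 6.28, 3.97 and 5.24 on control arrays 1 to 4. The control arrays were uneven: the upper decile of levels over all probe sets was 5.37, 5.51, 4.58 and 4.43 on them. It was 5.10 to 5.45 on the eNampt and CRH arrays. The part of this unevenness in the control levels, and in fits that include the control arrays, was not tested.

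**Figure D2:**
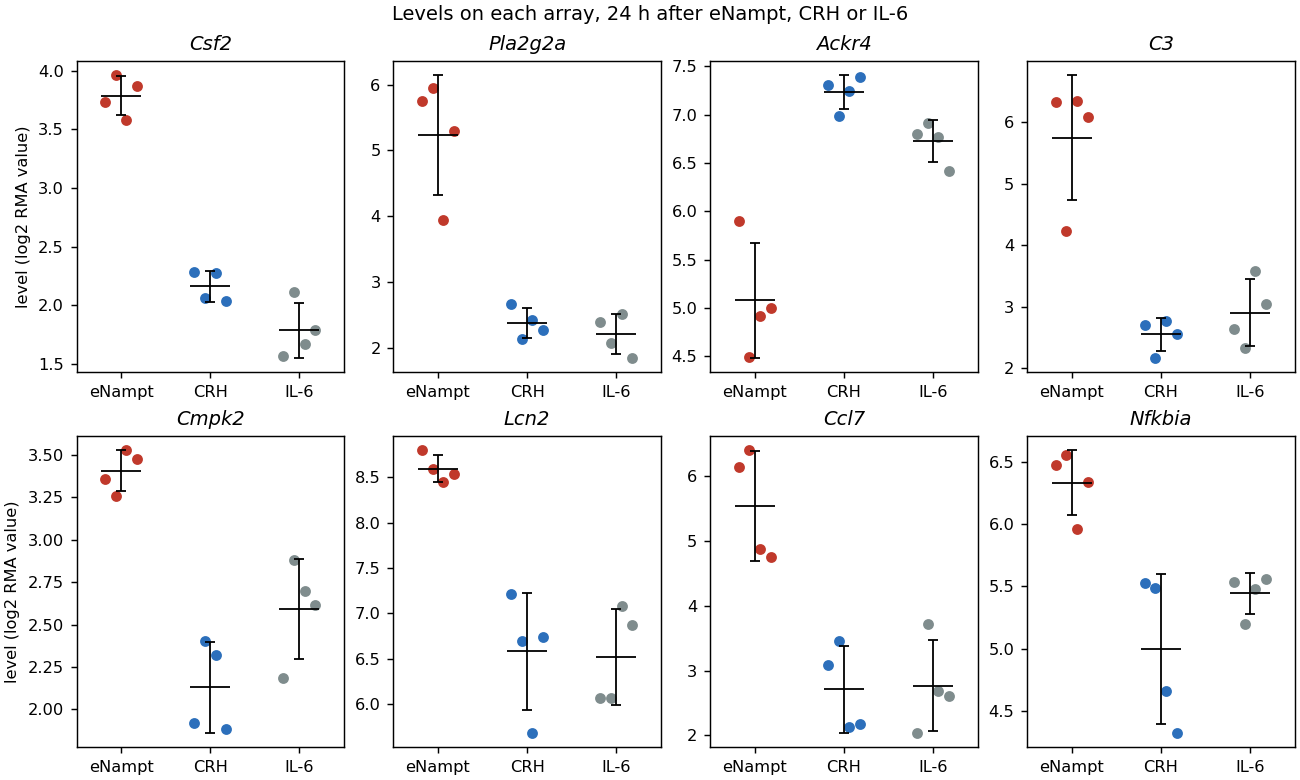
Level of 8 genes (log2 RMA value, y axis, a scale of its own in each panel) on the 4 arrays of eNampt, CRH and IL-6, with the mean and SD of each group as bars. The eNampt arrays stand above all CRH arrays for Csf2, Pla2g2a, C3, Cmpk2, Lcn2, Ccl7 and Nfkbia, and below them for Ackr4.

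The promoters of these genes are shown because NF-kB and CREB, named above in the pathways described for these ligands, bind short DNA motifs. Whether either factor acted in these cells was not tested. The windows are the 250 bases before the gene start, 5′ to 3′ in the sense of the gene, from RefSeq on the rat build GRCr8. Capitals mark a match, on either strand, to a kB site (GGG, any 2 bases, then TTTCC), a cAMP response element (CRE, TGACGTCA) or the NR4A element NBRE (AAAGGTCA).
Csf2: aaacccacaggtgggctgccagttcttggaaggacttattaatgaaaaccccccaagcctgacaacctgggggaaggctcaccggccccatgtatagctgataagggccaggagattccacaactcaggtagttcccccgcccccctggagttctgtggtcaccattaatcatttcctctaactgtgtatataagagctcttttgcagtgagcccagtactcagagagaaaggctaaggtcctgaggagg
Pla2g2a: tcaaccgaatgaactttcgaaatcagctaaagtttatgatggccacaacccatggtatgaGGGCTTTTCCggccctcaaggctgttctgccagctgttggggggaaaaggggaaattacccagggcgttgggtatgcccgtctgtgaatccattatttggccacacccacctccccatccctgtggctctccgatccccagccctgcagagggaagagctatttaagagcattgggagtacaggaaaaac
Ackr4: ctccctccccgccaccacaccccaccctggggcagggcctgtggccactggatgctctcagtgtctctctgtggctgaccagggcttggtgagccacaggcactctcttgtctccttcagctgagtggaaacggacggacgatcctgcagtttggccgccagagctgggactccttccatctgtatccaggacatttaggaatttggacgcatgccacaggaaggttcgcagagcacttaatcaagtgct
C3: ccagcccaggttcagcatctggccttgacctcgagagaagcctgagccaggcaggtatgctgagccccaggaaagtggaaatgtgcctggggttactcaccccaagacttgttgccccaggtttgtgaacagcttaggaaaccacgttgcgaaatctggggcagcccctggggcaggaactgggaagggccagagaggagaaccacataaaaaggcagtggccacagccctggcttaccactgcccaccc
Lcn2: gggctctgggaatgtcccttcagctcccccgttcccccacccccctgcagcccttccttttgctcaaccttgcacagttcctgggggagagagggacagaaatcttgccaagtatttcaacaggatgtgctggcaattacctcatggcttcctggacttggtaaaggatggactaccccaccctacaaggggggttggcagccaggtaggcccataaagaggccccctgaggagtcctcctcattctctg

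The Csf2 window is chr10:38889674-38889923, minus strand. The Pla2g2a window is chr5:156359475-156359724, plus strand. The Ackr4 window is chr8:113599763-113600012, minus strand. The C3 window is chr9:2201340-2201589, minus strand. The Lcn2 window is chr3:36081781-36082030, minus strand. The Pla2g2a window holds 1 kB match, which begins 190 bases before the start, and the other windows hold no match to these exact patterns. A kB match was found in 1.28% of all 27457 promoters of this length, and in 1.39% of the 11724 whose genes were tested here. The CRE was in 1.70% and the NBRE in 1.11% of all promoters. A match describes letters and does not show binding. A window without a match may still hold a site of other letters, since only these patterns were searched.

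The CC chemokines draw monocytes and lymphocytes, and 17 of 18 listed were measured. At an unadjusted p under 0.05, 3 were higher and none lower after eNampt, against 2.78% and 2.31% of all genes. They were Ccl7, Ccl20 and Ccl2, and for each of them the groups did not overlap. None passed over all genes, and the list's median log2 difference was 0.08 beside -0.05 for all genes. The 3 counted members were thus exceptions within a list whose middle lay near that of all genes. The counts of every list below are likewise to be read beside the shares of all genes, 2.78% higher and 2.31% lower. For groups that did not overlap these shares were 1.22% with the eNampt arrays above and 1.74% with them below.

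Ccl2, the main monocyte attractant, was at 6.96, 7.76, 5.54 and 6.29 after eNampt and at 5.07, 5.22, 2.36 and 2.48 after CRH. The CRH arrays fell into a higher and a lower pair, arrays 3 and 4 being low. The log2 difference was 2.86 ± 0.71 (SE, adjusted p 0.827 by limma), and 1.49 without those 2 CRH arrays.

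Ccl7, a close relative of Ccl2, had levels of 6.14, 6.40, 4.87 and 4.76 against 3.09, 3.46, 2.12 and 2.17. Its difference was 2.83 ± 0.48 (SE, adjusted p 0.191 by limma). Ccl20, which attracts cells through CCR6, was at 6.32, 6.66, 5.19 and 6.29 against 4.60, 4.60, 2.74 and 4.34. The difference was 2.05 ± 0.45 (SE, adjusted p 0.675), with CRH array 3 far below its group.

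Among CXC and CX3C chemokines 12 of 15 were measured, with a median of 0.10. At an unadjusted p under 0.05, 2 were higher and none lower, against 2.78% and 2.31% of all genes. Cxcl1, a neutrophil attractant, was at 5.90, 6.39, 5.27 and 5.57 against 5.31, 3.17, 3.71 and 4.44, with the highest CRH array just above the lowest eNampt array. Cxcl6 was at 2.77, 3.18, 2.10 and 3.03 against 1.92, 2.01, 1.95 and 2.05, without overlap. Their differences were 1.62 ± 0.42 and 0.79 ± 0.21 (SE), both with an adjusted p of 0.859 by limma. Cx3cl1, the membrane-bound chemokine, differed by 0.91 ± 0.42 (SE) with overlapping groups.

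Of the inflammatory cytokines and colony-stimulating factors, 18 of 20 were measured, and 5 were higher at an unadjusted p under 0.05, none lower, with a median of 0.24. They were Csf2, which passed over all genes, and Il1a, Il6, Il1b and Csf1, which did not. Il6, the cytokine that also stimulates corticotropes, stood at 6.88, 6.29, 6.18 and 5.26 after eNampt and at 5.60, 4.77, 3.35 and 2.02 after CRH. The lowest eNampt array lay below the highest CRH array, and the CRH values spread widely. The difference was 2.22 ± 0.66 (SE, adjusted p 0.895 by limma), and 0.97 without CRH arrays 3 and 4.

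Il1a, an alarmin, ranged from 2.51 to 5.51 after eNampt and from 1.61 to 2.04 after CRH, a difference of 1.81 ± 0.50 (SE). Il1b differed by 0.61 ± 0.23 and Csf1, the macrophage factor, by 0.90 ± 0.35 (SE), with overlap for both. Without eNampt array 2 the difference of Il1b was 0.39. Tnf was dim in both groups, at 1.90 ± 0.19 and 2.16 ± 0.14 (SD, n = 4), a difference of -0.26 ± 0.18 (SE). Without CRH arrays 3 and 4, 2 members of the list were counted as higher in place of 5.

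NF-kB is the transcription factor family that acts downstream of toll-like and cytokine receptors, and it induces its own inhibitors. Of 22 listed subunits, feedback inhibitors and survival targets 16 were measured, and 3 were higher and none lower at an unadjusted p under 0.05, with a median of 0.29. Nfkbia, which encodes the inhibitor IkBα, was at 6.47, 6.55, 5.96 and 6.34 after eNampt and 5.53, 5.48, 4.66 and 4.32 after CRH. The groups did not overlap, and the difference was 1.33 ± 0.27 (SE, adjusted p 0.374 by limma). Without CRH arrays 3 and 4 it was 0.83.

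Birc3, an inhibitor of apoptosis, differed by 1.97 ± 0.55 and the NF-kB subunit Relb by 0.98 ± 0.44 (SE). For both the highest CRH array reached the eNampt range: Birc3 was 3.48 on CRH array 2, and Relb was 5.66 on CRH array 1, above all eNampt arrays. Without CRH array 1 the difference of Relb was 1.47. Counted without CRH arrays 3 and 4, 1 member of this list was higher in place of 3.

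Toll-like receptor signalling genes were mixed, with 2 of 19 measured members higher and none lower at an unadjusted p under 0.05 and a median of -0.03. Tlr2, a receptor of bacterial lipoproteins, was at 2.68, 3.27, 2.23 and 2.82 against 1.99, 1.72, 2.09 and 1.94, without overlap and 0.82 ± 0.22 (SE) apart. Irak3, an inhibitor of the pathway, differed by 1.37 ± 0.45 (SE). Tlr4, the endotoxin receptor, was dim, at 1.63 ± 0.20 after eNampt and 2.36 ± 0.85 after CRH (SD). Its difference of -0.73 ± 0.34 (SE) was -0.32 without CRH array 2, which alone was at 3.60.

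**Figure D3:**
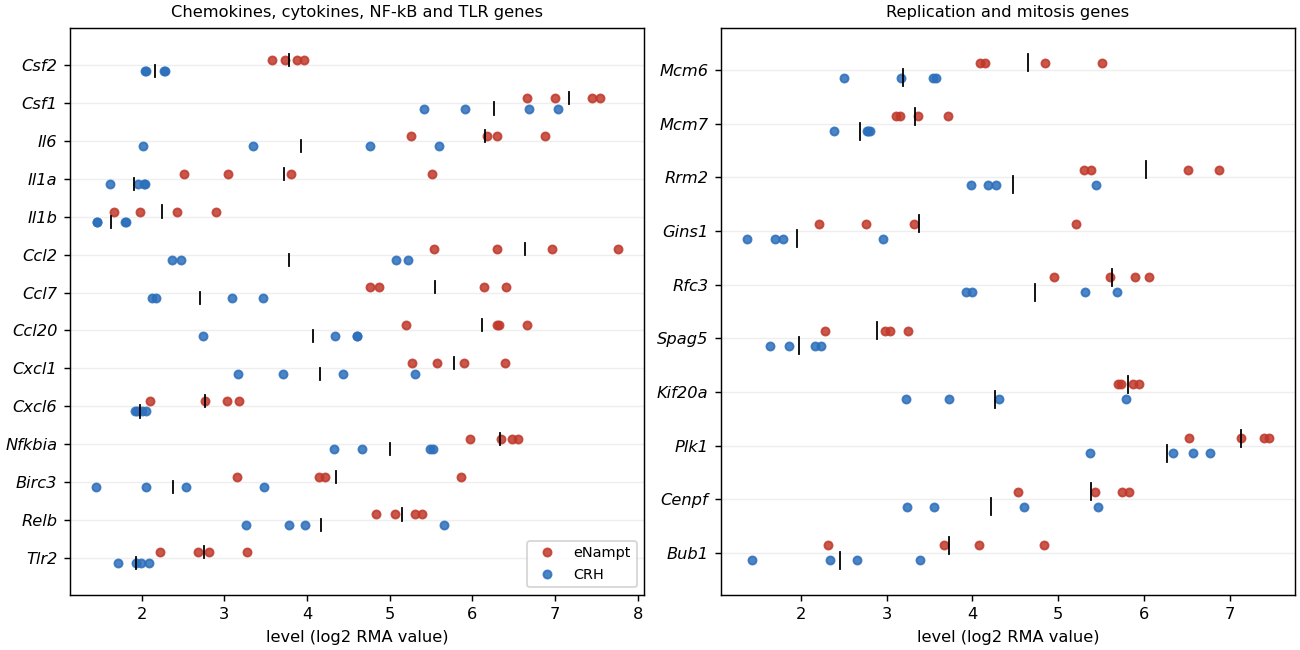
Levels (log2 RMA value, x axis) of inflammatory genes (left) and of replication and mitosis genes (right), with 1 point for each of the 4 eNampt (red) and 4 CRH (blue) arrays and a black tick at each group mean. Levels are to be compared within a gene and not between genes. The red points lie to the right of all blue points for Csf2, Il1a, Ccl2, Ccl7, Ccl20, Cxcl6, Nfkbia, Tlr2, Mcm6, Mcm7 and Spag5, and for Il6, Relb and Kif20a 1 or more blue points reach the red ones.

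The chemokine, cytokine and NF-kB lists hold 63 different measured genes. Among their members counted as higher, 9 have a promoter in the RefSeq table, and 5 of these hold a kB match: Ccl20, Cxcl1, Cxcl6, Il6 and Nfkbia. Of the other 42 with a promoter, 6 hold one. A CRE was found in Il6 alone and the NBRE in none of these. These counts are descriptive, since the genes were picked by the same arrays. The sites below are 20 bases each, with the match in capitals, on the strand of the gene, so that a match on the opposite strand reads as its reverse complement.
Ccl20: atgggGGAAAACCCCgggtg
Cxcl1: tgtggGGAAACACCCtgtgc
Cxcl1, other site: gctccGGGAATTTCCctggc
Cxcl6: ggcccGGGAATTTCCccagc
Il6: aatgtGGGATTTTCCcatga
Nfkbia: ggcttGGAAATTCCCcgcgc

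The Ccl20 site is chr9:91837065-91837084, plus strand, and its match begins 89 bases before the gene start. The Cxcl1 site is chr14:17479409-17479428, minus strand, and its match begins 102 bases before the gene start. The other Cxcl1 site is chr14:17479391-17479410, minus strand, and its match begins 84 bases before the gene start. The Cxcl6 site is chr14:17596491-17596510, minus strand, and its match begins 88 bases before the gene start. The Il6 site is chr4:5894629-5894648, minus strand, and its match begins 68 bases before the gene start. The Nfkbia site is chr6:78597089-78597108, minus strand, and its match begins 31 bases before the gene start.

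Of the leukocyte markers none of 10 measured was at an unadjusted p under 0.05, and their mean level was 1.75 to 2.36 on the eNampt arrays and 1.76 to 2.25 on the CRH arrays. Of 7 fibroblast markers 1 was higher, Pdgfra, at 1.92, 3.71, 5.28 and 2.03 against 1.71 to 2.01. Only eNampt arrays 2 and 3 were high for it, and its difference of 1.36 was 0.68 without array 3. The mean of the fibroblast markers was 5.04 to 5.97 on the eNampt arrays and 5.09 to 5.19 on the CRH arrays. Myl9, a contractile gene of smooth muscle, was the 1 lower marker of 6 of mural cells, at 7.04, 6.89, 6.31 and 6.11 against 7.17, 7.35, 7.61 and 7.32 without overlap, and the mean of that list was 4.48 to 4.81 against 4.53 to 4.98. The 3 measured melanotrope markers were all higher, with a median of 0.43 and 1 of them, Oacyl, at an unadjusted p under 0.05, and their mean was 3.90 to 4.20 on the eNampt arrays and 2.99 to 3.90 on the CRH arrays. The 4 measured markers of posterior lobe glia were also all higher, none at an unadjusted p under 0.05, with a median of 0.22 and means of 4.39 to 5.45 against 4.55 to 4.79. Of 6 markers of folliculostellate or stem cells 1 was higher at an unadjusted p under 0.05, Sox2, by 0.69 ± 0.27 (SE). Of the 6 differences 2 were above 0 and 4 below, the lowest at -1.64, with a median of -0.19. The mean of these markers was 3.37 to 3.75 on the eNampt arrays and 3.06 to 4.32 on the CRH arrays. The part of cell mixture in the differences was not tested.

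In the complement list 11 of 22 genes were measured, and C3 and C1r were higher at an unadjusted p under 0.05, none lower, with a median of -0.04. C1r, the protease that starts the classical pathway, was at 6.29, 6.03, 6.10 and 5.85 against 5.45, 5.54, 4.27 and 4.23. The groups did not overlap, the CRH arrays split into the same pairs as for Ccl2, and the difference of 1.20 ± 0.40 (SE) was 0.58 without CRH arrays 3 and 4. C1qa, made by macrophages, differed by -0.93 ± 0.42 and the inhibitor gene Serping1 by 1.07 ± 0.49 (SE), with overlapping groups. C1qa was at -0.55 without CRH array 2, and Serping1 at 0.52 without eNampt array 1.

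Of the acute-phase and IL-6 response genes 19 of 28 were measured, 2 were higher (Lcn2 and Cp) and none lower at an unadjusted p under 0.05, and the median was 0.14. Cp, ceruloplasmin, carries copper in plasma. It was at 5.22, 4.87, 5.70 and 5.13 after eNampt and 3.37, 3.38, 2.75 and 5.10 after CRH, with CRH array 4 inside the eNampt range, and differed by 1.58 ± 0.44 (SE). Among phospholipase A2 and prostaglandin genes 1 of 16 was higher, Pla2g2a, and none lower, with a median of 0.03. Ptgs2, the inducible cyclooxygenase, was at 6.99, 6.33, 7.47 and 6.93 against 6.60, 6.45, 6.46 and 3.11. The one low value, on CRH array 4, carried most of its difference of 1.28 ± 0.67 (SE), which was 0.43 without that array.

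Mmp9, a gelatinase, was the 1 higher member of 15 metalloproteinases and TIMPs, at 4.80, 4.23, 4.82 and 4.75 against 3.39, 3.43, 2.75 and 3.51. The groups were apart by 1.38 ± 0.25 (SE, adjusted p 0.205 by limma). Among adhesion molecules 1 of 11 was higher and 2 were lower: Plau, which activates plasminogen, differed by 0.56 ± 0.21, Icam2 by -0.40 ± 0.17 and Jam2, a junction protein, by -1.48 ± 0.65 (SE), with overlap for all 3. Jam2 was at -0.94 without CRH array 3. The interferon-stimulated list had no member of 17 at an unadjusted p under 0.05 in either direction and a median of -0.12. Antigen presentation had 1 of 16 higher, Cd74, the class II invariant chain, whose difference of 1.52 ± 0.67 (SE) was 0.65 without CRH arrays 3 and 4.

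Antioxidant enzymes had 2 of 25 higher and none lower, with a median of 0.10. Sod2, the mitochondrial superoxide dismutase that cytokines induce, was at 6.42, 6.50, 6.03 and 5.87 against 5.88, 5.01, 4.96 and 5.30, with 1 CRH array at the level of the lowest eNampt array. It differed by 0.92 ± 0.30 and Gclm, of glutathione synthesis, by 0.78 ± 0.32 (SE), both with an adjusted p of 0.895 by limma. Gclm was at 0.44 without eNampt array 2.

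Of 36 listed genes of CRH receptor and cAMP signal transduction 27 were measured, none was higher and 1 lower at an unadjusted p under 0.05, and the median was 0.02. Over all genes 2.78% were higher and 2.31% lower, so this count is near the background. The lower one was Adcy5, an adenylyl cyclase, which was dim at 1.71 to 1.98 after eNampt and 2.17 to 2.31 after CRH. Its difference was -0.35 ± 0.14 (SE).

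Immediate early and cAMP-responsive genes numbered 28 of 33 measured, of which 3 were higher, 1 lower and the median was -0.01. Dusp4, a phosphatase of MAP kinases, was at 3.74, 4.09, 4.36 and 4.33 after eNampt and 2.44, 1.92, 2.37 and 2.06 after CRH. The groups were well apart, by 1.93 ± 0.59 (SE, adjusted p 0.895 by limma), the error being widened by the IL-6 arrays, where the gene ranged from 1.84 to 4.69. Fosl1, an AP-1 subunit, was at 6.06, 5.65, 5.47 and 5.32 against 5.71, 4.19, 2.54 and 3.09. Its difference of 1.74 ± 0.54 (SE) was 0.68 without CRH arrays 3 and 4.

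Klf4, a zinc finger factor, differed by 0.96 ± 0.44 and Egr4 by -0.43 ± 0.19 (SE), with overlap. The NR4A receptors showed no called difference. Nr4a1 was at 6.01, 5.71, 5.76 and 4.90 against 4.88, 6.13, 5.81 and 2.44, so that its difference of 0.78 ± 0.73 (SE) turned to -0.01 without CRH array 4. Nr4a2 was at 5.76 ± 0.18 and 5.76 ± 0.29 (SD), a difference of 0.00 ± 0.20 (SE). Fos differed by 0.33 ± 0.23 (SE).

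Corticotrope identity genes had none of 9 measured members higher and 2 lower at an unadjusted p under 0.05, with a median of -0.09. Pomc itself was at 8.50, 8.36, 8.30 and 7.86 after eNampt and 8.47, 8.21, 8.73 and 8.38 after CRH. The groups overlapped, and the difference was -0.19 ± 0.17 (SE, adjusted p 0.901 by limma). Pitx1, a factor of all pituitary lineages, was at 4.37, 3.96, 3.97 and 4.01 against 4.45, 4.24, 4.60 and 5.22, and Gata2, of gonadotropes and thyrotropes, at 2.57, 2.76, 2.30 and 2.57 against 2.93, 3.30, 2.58 and 3.72. The differences were -0.55 ± 0.21 and -0.59 ± 0.22 (SE), and both lists of values overlapped. Pitx1 was at -0.35 without CRH array 4. Tbx19 differed by -0.09 ± 0.16 (SE).

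Among the genes of hormone storage and release the counts were near the background of 2.78% higher and 2.31% lower. Granins and prohormone processing had 0 of 9 in either direction and a median of 0.08. Cpe, carboxypeptidase E, had the largest difference there, -1.02 ± 0.63 (SE), with levels of 2.25 to 3.29 after eNampt and 1.78 to 5.06 after CRH. Its difference was 0.17 without CRH arrays 3 and 4. In exocytosis and vesicle fusion 1 of 22 was higher, Syt1, a calcium sensor, by 0.53 ± 0.21 (SE) at dim levels of 1.94 to 2.95 against 1.71 to 1.79, and by 0.30 without eNampt array 3. Of 35 Rab GTPases 2 were higher and none lower: Rab32, of lysosome-related organelles, by 1.34 ± 0.45 and Rab33b, of the Golgi, by 0.53 ± 0.22 (SE), both without overlap. Ion channels had 0 of 22 in either direction.

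The glucocorticoid receptor and its targets, which mark feedback on the axis, had 0 of 15 in either direction and a median of -0.09. Nr3c1, the receptor, differed by 0.21 ± 0.33 (SE) and Fkbp5, a chaperone it induces, by 0.55 ± 0.30. The latter rested on eNampt array 4 at 4.02, beside 2.44, 2.46 and 2.81 on the others, and was 0.19 without it. Il6r, the IL-6 receptor, differed by 0.20 ± 0.36 (SE).

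NAD synthesis and consumption, the pathway of the intracellular enzyme, had 2 of 22 measured members higher and 1 lower, with a median of -0.05. Nampt was not analysed here for lack of a probe set with a single symbol. Sirt5, a mitochondrial deacylase, was at 4.86, 5.04, 5.19 and 3.95 against 3.99, 2.99, 3.22 and 4.12, a difference of 1.18 ± 0.34 (SE, adjusted p 0.887 by limma) with eNampt array 4 inside the CRH range. Sirt4 differed by -0.67 ± 0.25 and Qprt, which makes NAD from quinolinate, by 0.69 ± 0.28 (SE), with overlap.

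No proliferation gene passed over all genes, while most members of both lists had a difference above 0. Of 26 measured DNA replication genes 5 were higher and none lower at an unadjusted p under 0.05, 18 had a difference above 0, and the median was 0.38. Of 23 measured genes of mitosis and chromosome segregation 5 were higher and none lower, 19 were above 0, and the median was 0.63. Over all genes 42.9% were above 0. Both lists are of brighter genes, with mean levels of 3.84 and 4.46, and the median difference of the 7450 genes above the median level was 0.07. Without CRH arrays 3 and 4 the medians of the replication and mitosis lists were 0.14 and 0.44 and the counts of higher members 4 and 3.

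Mcm6, a subunit of the replicative helicase, was at 4.09, 4.84, 5.51 and 4.15 after eNampt and 3.54, 3.57, 2.50 and 3.17 after CRH. There was no overlap, and the difference was 1.45 ± 0.32 (SE, adjusted p 0.675 by limma). Mcm7, of the same helicase, was at 3.37, 3.71, 3.11 and 3.15 against 2.78, 2.77, 2.80 and 2.39, again without overlap, and differed by 0.65 ± 0.17.

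Rrm2, of the enzyme that makes deoxynucleotides, was at 5.29, 6.51, 6.87 and 5.38 against 4.18, 3.98, 5.43 and 4.28. One CRH array, 3, reached the lower eNampt arrays, and the difference was 1.55 ± 0.51 (SE). Gins1, of the helicase complex, differed by 1.42 ± 0.57, but by 0.81 without eNampt array 2, and Rfc3, of the clamp loader, by 0.90 ± 0.40. Pcna, the clamp itself, was not counted, at 0.72 ± 0.41, and at 0.33 without CRH array 3.

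On the mitotic side, Spag5, a spindle protein, was at 3.04, 2.98, 2.28 and 3.25 against 2.24, 2.17, 1.86 and 1.65, without overlap and 0.91 ± 0.22 (SE) apart. Kif20a, a kinesin of cytokinesis, was at 5.69, 5.86, 5.94 and 5.73 against 5.78, 4.31, 3.22 and 3.73. The eNampt arrays were close together, CRH array 1 was at their level, and the difference of 1.54 ± 0.45 (SE) was 0.76 without CRH arrays 3 and 4. Plk1, the polo-like kinase, differed by 0.86 ± 0.30, Cenpf, of the kinetochore, by 1.16 ± 0.46, and Bub1, of the spindle checkpoint, by 1.27 ± 0.54. Without those 2 CRH arrays these were 0.46, 0.35 and 0.70.

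The p53 target and BCL2 family list had a median of -0.40, with 0 of 11 higher and 1 lower. Leaving out 1 array in turn gave medians from -0.47 to -0.12. Bax, which permeabilizes mitochondria in apoptosis, was at 5.64 ± 0.46 against 6.59 ± 0.99 (SD, n = 4), with overlap and a difference of -0.95 ± 0.42 (SE). Sesn2, a stress-induced inhibitor of growth signals, differed by -1.21 ± 0.57. Without CRH array 2 the differences of Bax and Sesn2 were -0.56 and -0.74. Cdkn2b, which encodes a CDK4 and CDK6 inhibitor and was among the 12 lower genes, was at 4.52, 4.47, 5.30 and 4.97 against 5.61, 6.07, 6.41 and 5.36. All CRH arrays were above all eNampt arrays, by 1.05 ± 0.27 (SE) in the means, with an adjusted p of 0.859 by limma.

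Metabolic lists held no called gene. Glycolysis and hypoxia response had 3 of 19 higher, Aldoc, Pkm and Pgk1, none lower and a median of 0.35, but no higher member without CRH arrays 3 and 4. The 3 glycolytic enzymes differed by 1.02 ± 0.40, 0.47 ± 0.20 and 0.46 ± 0.21 (SE). Aldoc and Pgk1 were at 0.50 and 0.29 without CRH arrays 3 and 4, and Pkm at 0.26 without eNampt array 4. Epas1, the hypoxia factor HIF-2α, differed by 1.41 ± 0.66, and by 0.68 without CRH array 4, which was at 2.27. In cholesterol synthesis and uptake 14 of 16 differences were above 0, with a median of 0.22, Fdft1 higher by 0.52 ± 0.17 and Mvd lower, at -0.60 ± 0.25 (SE). Without CRH arrays 3 and 4 that median was -0.01, and Mvd was at -0.35 without CRH array 2. The respiratory chain had 1 of 45 higher, Sdha of complex II, by 0.82 ± 0.35 (SE), and a median of 0.02. Without CRH arrays 3 and 4 its median was -0.38, with 0 higher and 1 lower, and Sdha was at 0.31. Mitochondrial ribosomal (46), cytosolic ribosomal (35) and proteasome (27) genes had 0 in either direction, as had collagens (21) and matrix proteoglycans (22). Without CRH arrays 3 and 4 the medians were -0.43 for mitochondrial ribosomal, -0.17 for cytosolic ribosomal and -0.25 for proteasome genes, beside 0.12, 0.02 and 0.11 with all arrays. Without those arrays 2 members were counted as lower in each of the mitochondrial ribosomal, proteasome, toll-like receptor, Rab and antioxidant lists. The antioxidant, antigen presentation, adhesion, exocytosis, clock, angiopoietin and growth factor lists then had no member counted as higher.

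The unfolded protein and integrated stress response had 0 of 22 higher and 1 lower, Dnajc3, an ER chaperone, at -0.55 ± 0.22 (SE), and at -0.36 without eNampt array 2. Bmal1, the core clock factor, was the 1 higher gene of 11 of the clock, by 1.24 ± 0.45. Angpt1, a ligand of the endothelial receptor Tek, was the 1 higher gene of 15 of its families, at 5.22, 4.98, 5.81 and 5.83 against 4.08, 4.15, 4.52 and 2.51, without overlap and 1.64 ± 0.67 apart. Among growth factors of the TGF-beta and other families 2 of 23 were higher and 1 lower: Gdf15 by 0.85 ± 0.33, Inha, the inhibin alpha chain, by 0.84 ± 0.34, and Fgf1 at -0.97 ± 0.40 (SE). The difference of Inha was 0.45 without eNampt array 2, that of Fgf1 -0.62 without CRH array 4, and that of Gdf15 0.47 without CRH arrays 3 and 4.

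**Figure D4:**
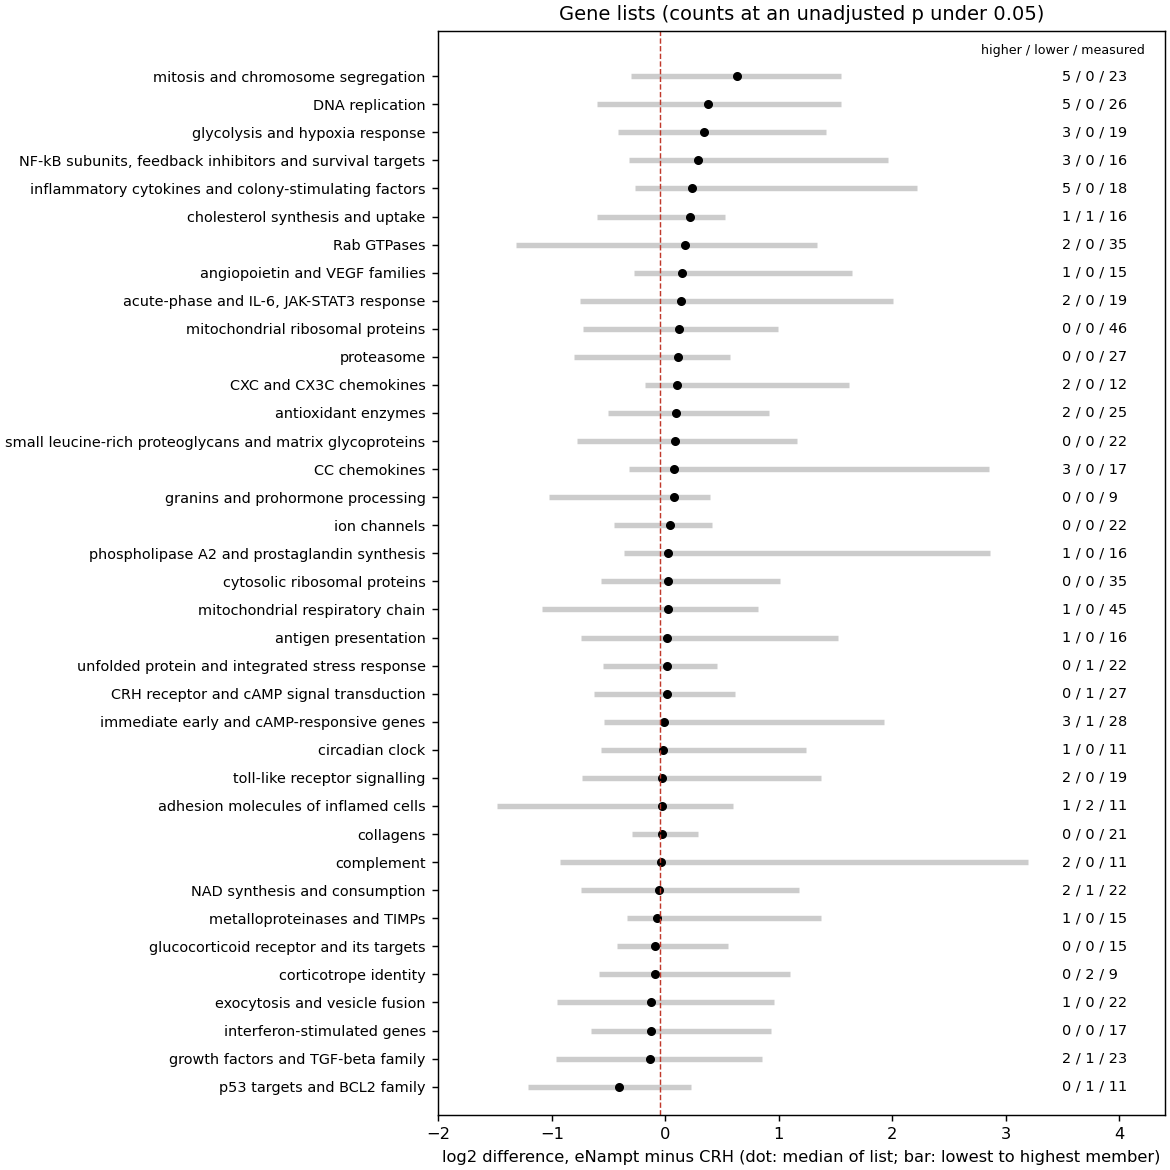
Median log2 difference, eNampt minus CRH, of the measured members of 37 gene lists (dot, x axis), with a bar from the lowest to the highest member and the median of all genes as a red dashed line at -0.05. The columns of numbers count members higher and lower after eNampt at an unadjusted p under 0.05 and the members measured. Mitosis and DNA replication have medians of 0.63 and 0.38, while complement and phospholipase A2 have medians near 0 and 1 member far to the right, C3 and Pla2g2a.

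Of the other genes named by their moderated t, 4 higher ones belong to none of these groups. Ecsit, an adaptor of toll-like signalling that also serves complex I assembly, was at 5.47, 5.55, 5.66 and 5.06 after eNampt and 4.32, 2.51, 2.06 and 1.83 after CRH. The groups did not overlap, CRH array 1 being the nearest, and the difference was 2.75 ± 0.50 (SE, adjusted p 0.205 by limma). Without CRH array 1 it was 3.30, with an adjusted p of 0.0106 by limma, the 1 alternative of 18 in which Ecsit passed. Without CRH arrays 3 and 4 the difference was 2.02 (adjusted p 0.9996). The adjusted p was 0.576 with only the 8 arrays in the fit.

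Ugdh, which makes the sugar donor for hyaluronan and glucuronides, was at 5.60, 6.47, 6.45 and 5.95 against 4.51, 4.73, 4.02 and 2.97, a difference of 2.06 ± 0.37 (SE). Lrrc2, a leucine-rich repeat protein, was at 4.78, 4.83, 4.94 and 3.26 against 2.93, 2.21, 1.93 and 2.37, 2.09 ± 0.36 apart. It passed in 1 of 18 alternatives, without eNampt array 4 (2.49, adjusted p 0.0163 by limma). Without CRH arrays 3 and 4 its difference was 1.88 (adjusted p 0.952). Tgm1, a protein crosslinking transglutaminase, was at 4.71, 4.65, 4.31 and 4.92 against 3.53, 3.46, 1.87 and 2.67, a difference of 1.76 ± 0.34, and of 1.15 without CRH arrays 3 and 4. All 3 were without overlap.

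On the lower side the genes after Ackr4 did not pass. Mplkip, a protein that binds the kinase Plk1, was at 3.55, 3.37, 3.44 and 3.22 against 4.37, 4.61, 3.97 and 4.94, a difference of -1.08 ± 0.19 (SE, adjusted p 0.205 by limma). Mlx, the partner of the glucose-sensing factor ChREBP, was at 3.55, 3.88, 3.02 and 3.54 against 4.64, 4.96, 5.46 and 4.25, and Mrm2, a mitochondrial rRNA methyltransferase, at 2.50, 2.92, 2.39 and 2.21 against 3.10, 3.93, 3.76 and 3.15. Their differences were -1.33 ± 0.30 and -0.98 ± 0.22 (adjusted p 0.675). None of these overlapped.

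Smaller or noisier differences made up the rest of the lower side: Tshz1 (-0.92 ± 0.24) and Zfp687 (-0.86 ± 0.23), zinc finger factors, Prelid2 (-1.42 ± 0.38), of a lipid transfer family, Rflnb (-0.86 ± 0.24), which binds filamin, Itprid2 (-0.66 ± 0.17), Mrgprg (-0.67 ± 0.18), an orphan receptor, and Spag1 (-0.50 ± 0.14), of dynein assembly. Each had an adjusted p of 0.859 by limma. The levels of Prelid2 after eNampt (1.25 to 1.48), of Mrgprg (1.12 to 1.57) and of Spag1 (1.61 to 1.94) were dim.

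The IL-6 arrays give the same genes a second reference. Both comparisons share the eNampt arrays, so their values are only set side by side. Against IL-6, 2 genes passed (0.0137%), both higher after eNampt and both also higher against CRH: Csf2 by 2.00 ± 0.15 (SE, adjusted p 0.000508) and Pla2g2a by 3.03 ± 0.37 (0.0335, limma). Against CRH the same values were 1.62 and 2.86. At an unadjusted p under 0.05, 295 genes (2.03%) were higher and 232 (1.59%) lower than after IL-6. C3 differed by 2.85, Ccl7 by 2.78, Lcn2 by 2.07 and Lrrc2 by 2.19 against IL-6, close to their values against CRH of 3.20, 2.83, 2.01 and 2.09. Ackr4 was lower by 1.64 ± 0.26 than after IL-6 (adjusted p 0.137).

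For other genes the IL-6 arrays lay nearer to the eNampt arrays. Ecsit differed by 0.58 ± 0.50 from IL-6 beside 2.75 from CRH, Ugdh by 0.76 ± 0.37 beside 2.06, Fosl1 by 0.31 ± 0.54 beside 1.74, Epas1 by 0.29 ± 0.66 beside 1.41, and Gdf15 by -0.25 ± 0.33 beside 0.85. On the lower side Mplkip (-0.18), Mlx (-0.20), Mrm2 (0.23), Tshz1 (0.20), Zfp687 (0.04) and Jam2 (0.23) were near 0 against IL-6. IL-6 minus CRH gave 0 genes past the adjusted threshold by limma, with 282 higher (1.94%) and 346 lower (2.38%) at an unadjusted p under 0.05. Rrm2 stood further from IL-6 than from CRH, at 2.81 ± 0.51 against IL-6 and 1.55 against CRH, and the medians of the replication and mitosis lists against IL-6 were 0.55 and 0.51.

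**Figure D5:**
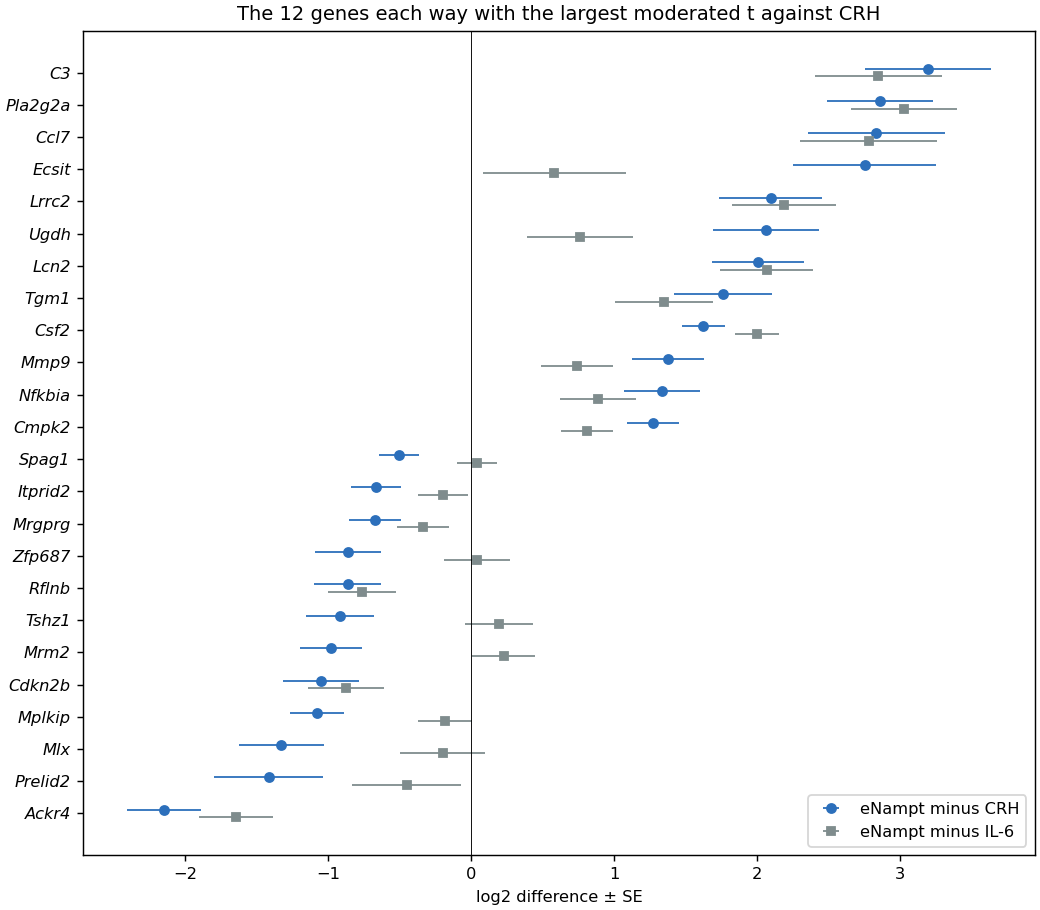
Log2 difference with its SE (x axis) of the 24 genes of largest moderated t, 12 in each direction, in eNampt minus CRH (blue circles), and of the same genes in eNampt minus IL-6 (grey squares), which shares the eNampt arrays. C3, Pla2g2a, Ccl7, Lrrc2, Lcn2 and Csf2 have both values well to the right of 0, whereas Ecsit and Ugdh have grey values of 0.58 and 0.76, well to the left of their blue ones.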

How the data were processed

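Per the labels' protocols, Affymetrix arrays were hybridised with target amplified by a Pico kit, the input being 5 ng of RNA. The deposited table holds log2 expression values per probe set; the submitters' processing notes name RMA for this step, without a version. No source used here gives the probe set level, and the values carry no detection call. The table has 36685 probe sets, of which 14824 have a single gene symbol in the array annotation, 829 several and 21032 none there. Entrez identifiers gave the current rat symbol of 14670 probe sets. For 234 genes with several probe sets, the brightest by its mean of 16 arrays stood for the gene, and 14557 genes remained.

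Groups were taken from the sample titles. A mean for each ligand was fitted to the 12 arrays of eNampt, CRH and IL-6 with limma 3.58.1 under R 4.3.3. Variances were moderated by empirical Bayes, neither robustly nor with an intensity trend, and tests were two-sided. The IL-6 arrays add to the estimate of the spread, which had 9 residual degrees of freedom and 2.30 from the prior. At the median residual SD of 0.376 (log2) a difference has an SE of 0.266. The number of arrays limits the precision. P-values were adjusted over all genes by Benjamini-Hochberg, and a gene was called under 0.05. SE is the moderated standard error and SD the spread of the 4 arrays.

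The members, the 37 gene lists and the rule for named genes were chosen with earlier results of these data known. The rule names called genes, the genes of largest moderated t up to 12 each way, and up to 6 members of each list by the same measure. It also names a fixed set that includes Pomc, Tbx19, Nr4a1, Nr4a2, Tlr4, Il6 and Tnf. Predicted loci and small RNA, histone and chemosensory receptor genes were left out of the 12 each way. Promoters came from RefSeq (GRCr8) through Entrez identifiers. Alternatives changed the arrays in the fit, the variance model, array weights, scaling, the filter on dim genes, the probe sets and the replicates. Replicate numbers in the titles were checked for pairing: the deviations of same-numbered arrays correlated at 0.196, 0.127, 0.234 and 0.0225. Differently numbered arrays correlated at -0.175 to 0.0495. The main fit took no pairs, since the labels give the numbers no shared source, and a shared source was not tested. A fit with the numbers as a block called 0 genes, so none of the 3 calls held with it.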

Additional observations from a re-analysis of the deposited data

Results flagged for a closer look

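In 200 groups of 4 arrays (100 genes, eNampt and CRH), 15 held 1 array whose gap to the others passed Dixon's critical value of 0.829, where chance gives about 1 in 20. Low values on eNampt arrays were C3 at 4.24 and Mmp9 at 4.23 on array 2, Lrrc2 at 3.26 on array 4 and Spag1 at 1.61 on array 1. High values there were Pitx1 at 4.37 on array 1 and Inha at 4.24 on array 2. CRH array 3 was low for Mmp9 at 2.75, Rflnb at 5.21 and Ccl20 at 2.74. CRH array 4 was low for Ptgs2 at 3.11, Mcm7 at 2.39 and Epas1 at 2.27, and high for Tbx19 at 1.61. CRH array 2 was low for Dnajc3 at 5.69, and CRH array 1 was high for Qprt at 2.19. Among the low values, 6 lay on CRH arrays 3 and 4, the arrays with the lowest quality weights, and the part of array quality in them was not tested.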

How the results depend on the processing

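The 3 genes called with 12 arrays became 1 with only the 8 arrays of both groups (Csf2), 2 with all 16 arrays (C3 and Pla2g2a), 5 with array weights and 0 without CRH arrays 3 and 4, a choice made after seeing the data. Leaving out each replicate in turn gave 1 to 4. With the replicate numbers as a block, 0 genes were called. The numbers share no source in the labels. In their deviations eNampt arrays 1, 2 and 3 correlated best with the CRH array of the same number, and eNampt array 4 with CRH array 3 (0.0364). Csf2 passed in 15 of 18 alternatives, Ackr4 in 8, Pla2g2a in 7 and C3 in 5. The 405 higher and 336 lower genes at an unadjusted p under 0.05 became 754 and 960 with all probe sets, where more features were tested, 222 and 361 without CRH arrays 3 and 4, and 330 to 552 and 183 to 623 without 1 replicate. Only 98 were lower among genes above the median level. Of 1786 gene values under alternatives, 1742 kept direction and side of the threshold, 24 lost the call, 9 gained it and 11 changed sign. The last were Nr4a2 (-0.013 with array weights and with repeated quantile normalization, -0.0905 to 0.0961 without 1 replicate), Nr4a1 (-0.0106 without CRH array 4, up to 1.22 without CRH array 2), Nr3c1 (-0.055 to 0.511 without 1 replicate), Il6r (-0.0991 to 0.405) and Cpe (0.17 without CRH arrays 3 and 4). None of these 5 was called, and the cause was not tested. Of 666 list medians 30 moved by more than the SD between arrays. Dim levels and 4 arrays a group limit what can be called.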

Other observations

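Probe sets without a gene symbol in the annotation used here held values as far apart as those of the named genes. With all 36685 probe sets in the fit, 2 such probe sets passed, both higher after eNampt with an adjusted p of 0.0493 by limma. Probe set 17761844 was at 7.25, 5.49, 7.57 and 5.75 after eNampt and 2.90, 2.97, 2.43 and 1.16 after CRH, a log2 difference of 4.15 ± 0.51 (SE). It stood at 6.30 to 6.90 on the IL-6 arrays. Probe set 17608859 was at 3.62, 3.05, 4.34 and 4.28 after eNampt and 1.51, 0.72, 0.75 and 0.61 after CRH, a difference of 2.92 ± 0.34 (SE), and at 2.06 to 3.13 on the IL-6 arrays. The genes they belong to are not named here.

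Leaving out 1 array brought in genes outside the named set: Prpf18 without CRH array 1, Cdo1 and Hbq1 without eNampt array 3, and Ciao3 without eNampt array 4 passed in those fits alone. These genes were picked after their values were seen.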
